A study of Mus musculus with 29 samples.

Results

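Genes of the interferon regulatory factor (IRF) family other than Irf8 were followed through mouse blood progenitors and type 1 dendritic cells by the acetylated chromatin around them and by the binding of IRF8 and CEBPA near them. The members were Irf1, Irf2, Irf3, Irf4, Irf5, Irf7 and Irf9, 7 of 21887 protein-coding genes on the placed chromosomes, and they were chosen by name. A locus was the gene span with 50 kb added on each side, on mm10 (GRCm38). The 7 loci held 758 of the 473697 regions and peaks called in the 22 libraries.

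IRF proteins bind DNA through a shared helix-turn-helix domain that recognises GAAA repeats, the core of the interferon-stimulated response element. IRF3, IRF5 and IRF7 are activated by pattern-recognition receptors and switch on type I interferon genes, IRF9 is part of the complex that answers type I interferon, and IRF1 and IRF2 bind the same elements as an activator and, in many settings, its antagonist. IRF4 is the closest relative of IRF8, and both bind composite sites with ETS or AP-1 partners in lymphoid and dendritic cells. H3K27ac, acetylation of histone H3 at lysine 27, marks active promoters and enhancers.

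All cells came from C57BL/6 mice. H3K27ac was mapped by ChIP-seq in wild-type (WT) LSK cells (lineage-negative, Sca1+ CD117+ stem and multipotent progenitors), WT lymphoid-primed multipotent progenitors (LMPP) and WT classical type 1 dendritic cells (cDC1) of the spleen. It was also mapped in animals lacking an Irf8 enhancer at +56 kb (d56kb), from which LMPP, GMP (precursors of granulocytes and monocytes) and MDP (precursors of monocytes and dendritic cells) were taken, and in LMPP of IRF8-deficient mice (IRF8KO). GMP and MDP were thus present only with the enhancer deleted, and cDC1 differed from the progenitors in organ as well as in type. CEBPA, a driver of myeloid fate, and IRF8 were each profiled in WT splenic cDC1 and WT bone marrow monocytes (Mo). The cDC1 for H3K27ac were sorted as XCR1+ CD172a- cells and those for IRF8 and CEBPA were enriched as CD8a+ cells. Each group had 2 libraries, called biological duplicates in the series' design without saying whether they came from different animals, so p-values can rest on technical spread. Ages were not given.

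On mm10, Irf1 (gene 16362) lies at chr11:53770014-53778374, Irf2 (16363) at chr8:46739745-46847458, Irf3 (54131) at chr7:44997648-45002848 and Irf4 (16364) at chr13:30749233-30766981. Irf5 (27056) lies at chr6:29526130-29541869 and Irf9 (16391) at chr14:55603985-55610030. Irf7 (54123), the only member on the minus strand, lies at chr7:141263183-141266499.

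The H3K27ac libraries held 1.26 to 10.9 M tags, and their called regions covered 17.7 to 52.1 Mb. The share of tags in called regions ran from 15.0% to 55.1%, and differed between both WT cDC1 libraries (52.3% and 16.4%). In IRF8KO LMPP 63.3% and 65.6% of regions were at the narrowest width that occurs, 501 bases, against 19.1% to 56.7% elsewhere. All 6 cDC1 markers were covered in both cDC1 libraries, with a summed level of 114 to 129 scaled kb against at most 14.3 in any other group. The 5 GMP markers were covered in both libraries of d56kb GMP, d56kb MDP, d56kb LMPP and LSK, with the highest sum in GMP (48.0 to 48.2 scaled kb) and the next in MDP (32.8 to 41.3). The 4 LMPP markers did not set WT LMPP apart: 3 were covered in both of its libraries and 4 in both of LSK, and the sums overlapped (35.8 to 46.5 and 38.5 to 40.9 scaled kb; 34.7 to 37.7 in cDC1). Of the 4 neutrophil markers, 2 were covered in both d56kb GMP libraries, with a summed level of 1.76 to 1.97 scaled kb, and Ly6g was at 0 in every group. All 4 monocyte markers were covered in both libraries of d56kb GMP (summed level 9.05 to 10.5 scaled kb) and of d56kb MDP (13.7 to 14.9), beside at most 2.95 elsewhere, and their part in the results was not tested. Since the samples are bulk sorts, fewer cells with an acetylated locus and narrower acetylation in each cell cannot be told apart.

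The promoters of 4 members are shown first, because the peaks and acetylation described further on bear on them. Each runs from 250 bases before to 50 bases after the annotated start, 5′ to 3′ on the gene's strand, as RefSeq gives it for GRCm38.p6. In Irf1 and Irf2, capitals mark matches to the response element core (GAAA, any 2 bases, GAAA), the ETS-IRF composite (GGAA, any 2 bases, GAAA) or TTCNNNGAA (a STAT site), searched on both strands. In Irf5, capitals mark GC boxes, GGGCGG on either strand, which are left unmarked in Irf1 and Irf2. Irf7 is shown for the CEBPA peaks of both Mo libraries over it, and has no match to any of these.
Irf1, chr11:53769764-53770063, plus strand: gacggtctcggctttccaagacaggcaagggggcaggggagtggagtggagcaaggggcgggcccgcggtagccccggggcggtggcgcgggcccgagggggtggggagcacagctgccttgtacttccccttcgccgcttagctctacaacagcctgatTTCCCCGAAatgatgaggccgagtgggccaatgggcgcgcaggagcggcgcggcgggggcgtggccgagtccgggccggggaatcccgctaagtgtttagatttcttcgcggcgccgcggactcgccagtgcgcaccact
Irf2, chr8:46739495-46739794, plus strand: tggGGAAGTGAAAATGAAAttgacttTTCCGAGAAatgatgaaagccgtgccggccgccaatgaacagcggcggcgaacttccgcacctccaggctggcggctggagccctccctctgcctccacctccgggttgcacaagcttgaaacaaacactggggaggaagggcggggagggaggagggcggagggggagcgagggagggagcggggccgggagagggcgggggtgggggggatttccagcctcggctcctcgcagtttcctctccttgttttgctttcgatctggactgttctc
Irf5, chr6:29526375-29526674, plus strand: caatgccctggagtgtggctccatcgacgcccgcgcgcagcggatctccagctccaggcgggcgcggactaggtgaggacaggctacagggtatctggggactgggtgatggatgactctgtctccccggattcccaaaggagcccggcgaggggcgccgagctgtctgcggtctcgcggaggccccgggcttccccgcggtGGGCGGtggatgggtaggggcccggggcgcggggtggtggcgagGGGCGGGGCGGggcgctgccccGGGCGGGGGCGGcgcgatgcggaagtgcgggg
Irf7, chr7:141266375-141266674, minus strand: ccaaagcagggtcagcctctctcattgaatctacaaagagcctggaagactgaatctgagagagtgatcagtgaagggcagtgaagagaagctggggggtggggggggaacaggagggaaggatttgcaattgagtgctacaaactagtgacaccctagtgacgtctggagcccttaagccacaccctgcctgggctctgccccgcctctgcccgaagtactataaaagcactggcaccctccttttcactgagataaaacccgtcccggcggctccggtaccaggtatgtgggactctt

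Among the 9 annotated promoters of the 7 members, only that of Irf2 held the response element core or the ETS-IRF composite. The composite began at position -247 from the start of Irf2 and overlapped the core, which began at -241. A STAT match followed at -224. Of all 32544 promoters of the same length, 3.45% held the core, 2.73% the composite and 8.33% the STAT site on either strand. The Irf1 promoter held a STAT match at -90. Irf5 held 5 GC boxes, a motif found in 35.9% of promoters. Irf2 held 3, Irf4 and each Irf1 promoter 2, and Irf3 and the second Irf9 promoter 1. TTNNGCAA, part of the C/EBP site, and GGGNNTTCC, of NF-kB, each matched once, in Irf2, and occurred in 10.8% and 5.85% of promoters. The stricter NF-kB site (GGGA, any 2 bases, TTCC) and TGANTCA, the AP-1 site, matched in none of the 9 and occurred in 1.47% and 7.79% of all.

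For each gene, the bases of its locus lying in called regions were counted in every library. Counts were then brought to a common genome-wide covered length, the average over the 14 libraries, and are given as scaled kb. The deposited regions carry no strength, so the value is an extent of acetylation and not its height. Groups were compared on the log2 of scaled bases plus 1000, by limma over 19227 genes with adjustment over all of them by the Benjamini-Hochberg method and a threshold of 0.05. All 7 members passed the filter of covered bases in at least 2 libraries.

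Irf5 was called in 4 of the 8 comparisons and Irf2 in 3. Irf1, Irf3, Irf7 and Irf9 had no called difference in any of the 8 comparisons. Irf4 had 1 called difference, which rested on regions nearer to other genes.

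**Figure D1:**
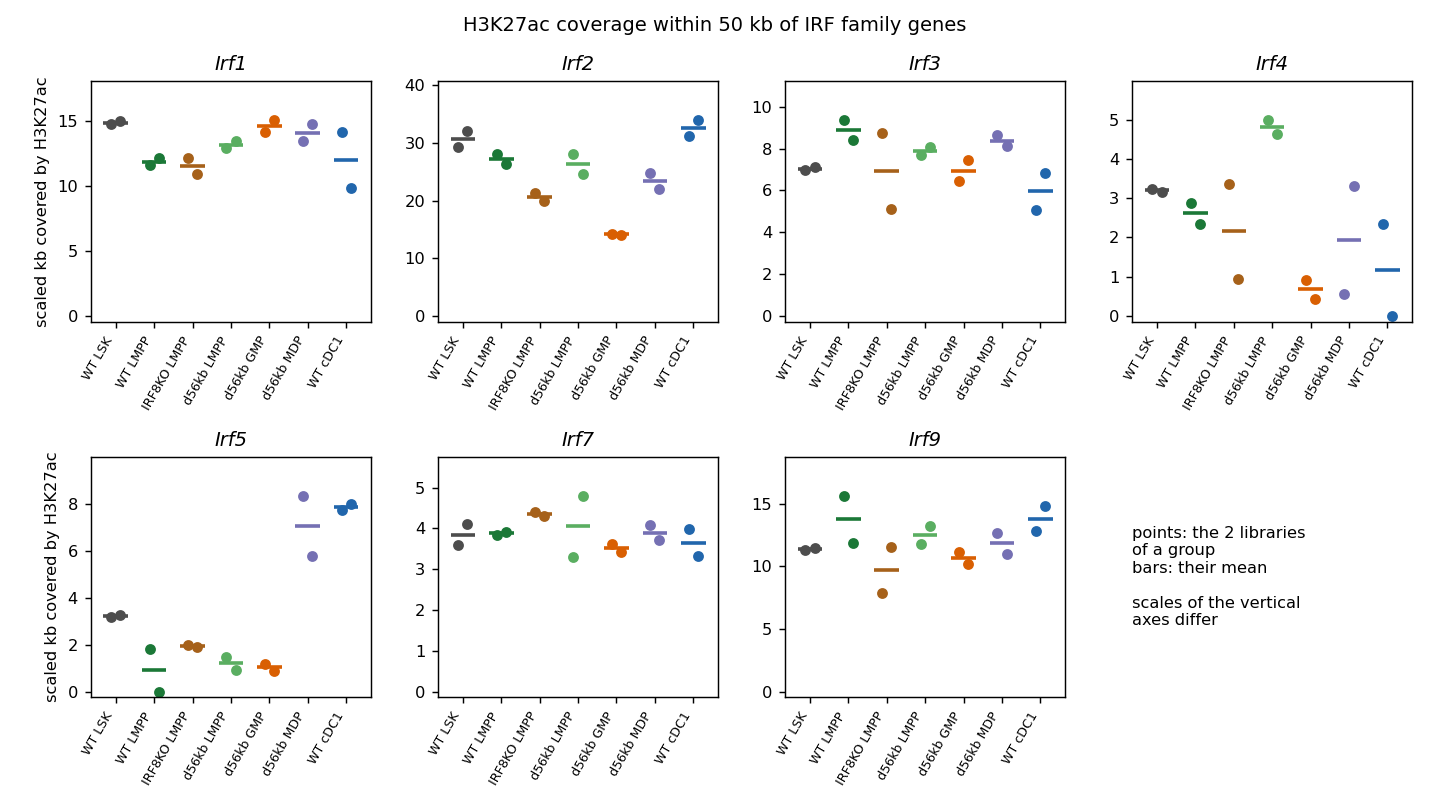
Bases covered by called H3K27ac regions within 50 kb of each gene, in scaled kb (vertical axis), for the 7 groups (horizontal axis). Points are the 2 libraries of a group and bars their mean; d56kb MDP and WT cDC1 stand above the other groups at Irf5, and d56kb GMP below them at Irf2.

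Irf5, which carries signals from Toll-like receptors in myeloid cells, was the member with the widest relative range. WT cDC1 covered 7.74 and 7.97 scaled kb. The d56kb MDP libraries covered 8.33 and 5.78 scaled kb, and WT LSK 3.19 and 3.25. The remaining groups were lower than all of these libraries: WT LMPP had 1.80 and 0, IRF8KO LMPP 1.97 and 1.89, d56kb LMPP 1.47 and 0.932, and d56kb GMP 1.17 and 0.887 scaled kb. The order was thus cDC1 and MDP, whose libraries overlapped, then LSK, then the 3 LMPP groups and GMP. In the last 4 groups WT LMPP spanned a range wide enough to overlap d56kb LMPP and GMP.

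In cDC1 against LMPP, Irf5 rose by 2.40 ± 0.36 on the log2 scale (limma, standard error; adjusted p = 0.000167) and was the only 1 of 7 members called higher, where 14.4% of all genes were and 35.0% changed either way. Its difference was 2.42 without the first cDC1 library and 2.38 without the second, the pair that differed in tags in regions, and it was called both times. Without either WT LMPP library in turn it was 3.15 and 1.66. Against LSK the rise was 1.07 ± 0.36 (limma, adjusted p = 0.0360; 13.1% of genes were higher and 32.4% changed either way). That call was lost when any 1 of its 4 libraries was left out, with adjusted p from 0.117 to 0.140.

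Within the d56kb genotype, Irf5 rose in MDP against LMPP by 1.86 ± 0.36 (limma, adjusted p = 0.00308), the 1 member higher there beside 8.44% of genes (16.7% either way). It also rose in MDP against GMP by 1.97 ± 0.36 (limma, adjusted p = 0.0124). Irf5 and Irf2 were the 2 members called higher in that last comparison, in which 1.32% of genes were. Leaving out a library lost the Irf5 call against GMP each time (adjusted p 0.0592 to 0.144) and against LMPP in no case (0.0150 to 0.0491). In LMPP against LSK the difference was -1.33 ± 0.36 (limma, adjusted p = 0.0789). It was -2.08 without the first WT LMPP library (adjusted p = 0.00747) and -0.59 without the second (adjusted p = 0.243). The 3 comparisons among LSK, LMPP and cDC1 share libraries with one another, as do those among the d56kb groups.

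Irf5 acetylation lay almost wholly at the gene: 94.0% of the covered bases of its locus were within 5 kb of the span, the highest share of the 7 members. A single merged element of 8754 bases spanned the start and held 3 stretches. The stretch from 1 to 4.5 kb inside the gene was called in 12 of 14 libraries, and the stretch within 1 kb of the start in 7. The stretch from -4.5 to -1 kb, upstream, was called in 6 libraries, which were both of LSK, both of d56kb MDP and both of cDC1. It covered a mean of 1.30 scaled kb in LSK, 2.27 in MDP and 2.62 in cDC1, and no base in any LMPP or GMP library. These stretches were laid after the regions had been seen and were not tested. In IRF8KO LMPP, 501 of the 1002 covered bases of the first library and none of the second's 1002 lay at the start-site element. The rest were single regions of the narrowest width.

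IRF8 had peaks in both libraries of both cell types at 3 sites of Irf5, at -2.4 kb from the start and 2.6 and 10.3 kb inside the gene. The upstream site also had CEBPA peaks in both Mo libraries. The site at -2.4 kb lay in H3K27ac in both libraries of LSK, MDP and cDC1 and in no library of the other 4 groups. The site at 2.6 kb lay in H3K27ac in both libraries of all groups except WT LMPP and IRF8KO LMPP, with 1 each. The site at 10.3 kb lay in called H3K27ac in none of the 14 libraries. The Irf5 promoter shown above lies between the first 2 of these sites and had no peak of either factor.

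**Figure D2:**
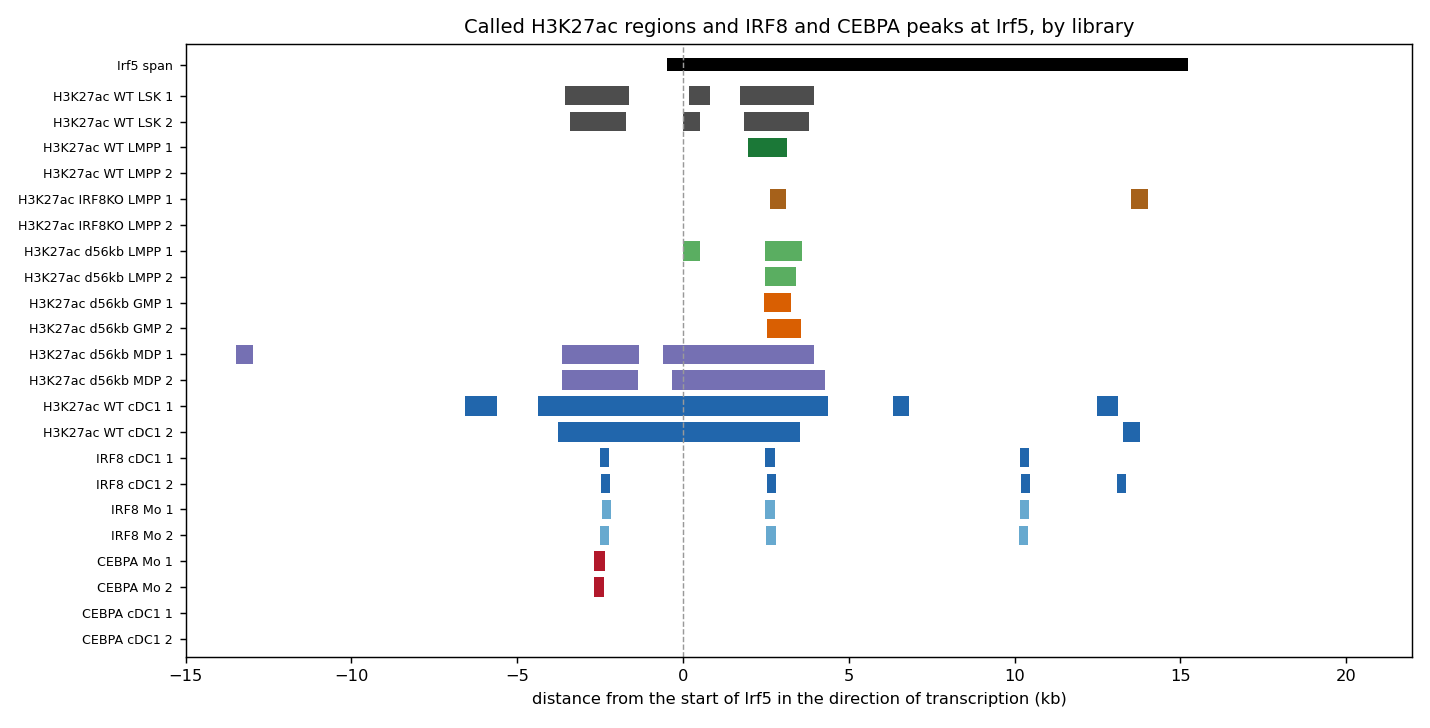
Called regions of each library at Irf5 against distance from its start in kb, 1 line per library, with the gene span in black. The stretch upstream of the start is acetylated in WT LSK, d56kb MDP and WT cDC1, where IRF8 peaks of cDC1 and Mo and CEBPA peaks of Mo coincide at -2.4 kb.

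Irf2 covered more scaled kb than the other 6 members in every group mean except that of d56kb GMP, where Irf1 had 14.6 and Irf2 14.1, on a window of 207714 bases that is also the longest, since the gene spans 107714 bases of chromosome 8 (46739745 to 46847458). No other protein-coding gene lies in that window. WT LSK covered 29.3 and 32.1 scaled kb, WT cDC1 31.2 and 34.0, WT LMPP 28.0 and 26.4, and d56kb LMPP 28.1 and 24.7. The d56kb MDP libraries covered 24.8 and 21.9 scaled kb, IRF8KO LMPP 21.3 and 19.8, and d56kb GMP 14.2 and 14. The GMP libraries lay below all others and did not overlap any group.

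Irf2 fell by 0.85 on the log2 scale in d56kb GMP against d56kb LMPP (limma, standard error 0.11, adjusted p = 0.000143). With Irf4 it made 2 of 7 members called lower, where 8.58% of genes were (17.6% either way). In MDP against GMP it rose by 0.68 ± 0.11 (limma, adjusted p = 0.00579). In MDP against LMPP it differed by -0.17 ± 0.11 (limma, adjusted p = 0.355). The fall in GMP was called under every alternative that gave a test. The rise in MDP against GMP was lost in 5 of 16 alternatives, among them leaving out either GMP library or the first MDP library (adjusted p 0.0504, 0.0755 and 0.0713).

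In IRF8KO against WT LMPP, Irf2 fell by 0.39 on the log2 scale (limma, standard error 0.11, adjusted p = 0.0422), the 1 member called lower beside 5.17% of genes (7.81% either way). This call did not hold up: without regions of the narrowest width, most frequent in the IRF8KO libraries, the difference was -0.06 (adjusted p = 0.796). Without the first or second WT LMPP library the adjusted p was 0.139 and 0.0609, and without the second IRF8KO library 0.0860. In d56kb against WT LMPP 0 of 7 members were called by limma, where 0.536% of genes were. At an unadjusted p under 0.05 there were 0 of 7 members and 2863 of 19227 genes. There Irf2 differed by -0.04 ± 0.11.

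Its 34 merged elements showed which stretches differed. The start-site element, the element centred 24.5 kb inside and the 12879-base element over the 3′ end of the gene were called in all 14 libraries. The element at the 3′ end covered a mean of 12.6 scaled kb in WT LMPP, 9.80 in d56kb LMPP and 4.26 in d56kb GMP. Without scaling it covered 7747 and 9397 bases in WT LMPP and 11208 and 9490 in d56kb LMPP. It covered 4557 and 5021 bases in d56kb GMP. The order of WT and d56kb LMPP at this element thus came from the scaling, while GMP was lowest of these groups either way. The one 24.5 kb inside covered 4.44 scaled kb in LSK, 4.07 in d56kb LMPP, and 1.30 in both GMP and MDP. An element 129.6 kb past the start was called in both libraries of LSK and of each LMPP group and in no GMP, MDP or cDC1 library. The element at 78.9 kb was called in 12 of 14 libraries, and the 2 without it were both of GMP.

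Other Irf2 elements were called in the mature and myeloid groups. The element 150.8 kb past the start covered a mean of 7.47 scaled kb in cDC1, 5.86 in d56kb MDP, 2.27 in d56kb GMP and 0.580 in d56kb LMPP. At 71.7 kb a region was called in both GMP and both MDP libraries, over a CEBPA peak of both Mo libraries. In 1 LSK library a region of the same element was called that did not reach this peak. Elements at 55.5, 88.9, 97.5 and 156.8 kb were called in both cDC1 libraries and in no other. Those at 38.6 and 49.3 kb were called in both libraries of LSK, GMP, MDP and cDC1, in 1 of d56kb LMPP, and in no WT or IRF8KO LMPP library. These elements were not tested one by one, and LMPP libraries had fewer covered bases in all (17.7 to 38.1 Mb) than LSK (44.5 and 52.1 Mb), and the part of that in the missing calls was not tested.

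The Irf2 locus, the longest window, also held more factor peaks than the locus of any other member. IRF8 had 12 peaks called in both cDC1 libraries there and 7 called in both Mo libraries, and CEBPA 14 in both Mo libraries. Per 100 kb of window these were 5.78, 3.37 and 6.74, against means of 1.22, 0.272 and 1.09 over all genes. At least that density occurred in 1.24%, 0.123% and 0.366% of genes.

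At the start of Irf2 all 6 libraries of IRF8 in cDC1, IRF8 in Mo and CEBPA in Mo had a peak. Each peak contained the response element core shown above. The peak centres lay 101 and 65 bases downstream of the middle of the match for IRF8 in cDC1, at -62 and -48 bases, upstream of it, for IRF8 in Mo, and 108 and 114 bases downstream of it for CEBPA in Mo. The C/EBP match of this promoter, at -118 from the start, lay nearer to both CEBPA peak centres than the core did. This match lay inside the CEBPA peaks of Mo and the IRF8 peaks of cDC1, and outside the IRF8 peaks of Mo. All 3 sets also met at 38.5, 112.1 and 146.6 kb past the start. At 85.3 and 141.6 kb, IRF8 peaks of both cDC1 libraries lay outside H3K27ac in all 14 libraries.

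**Figure D3:**
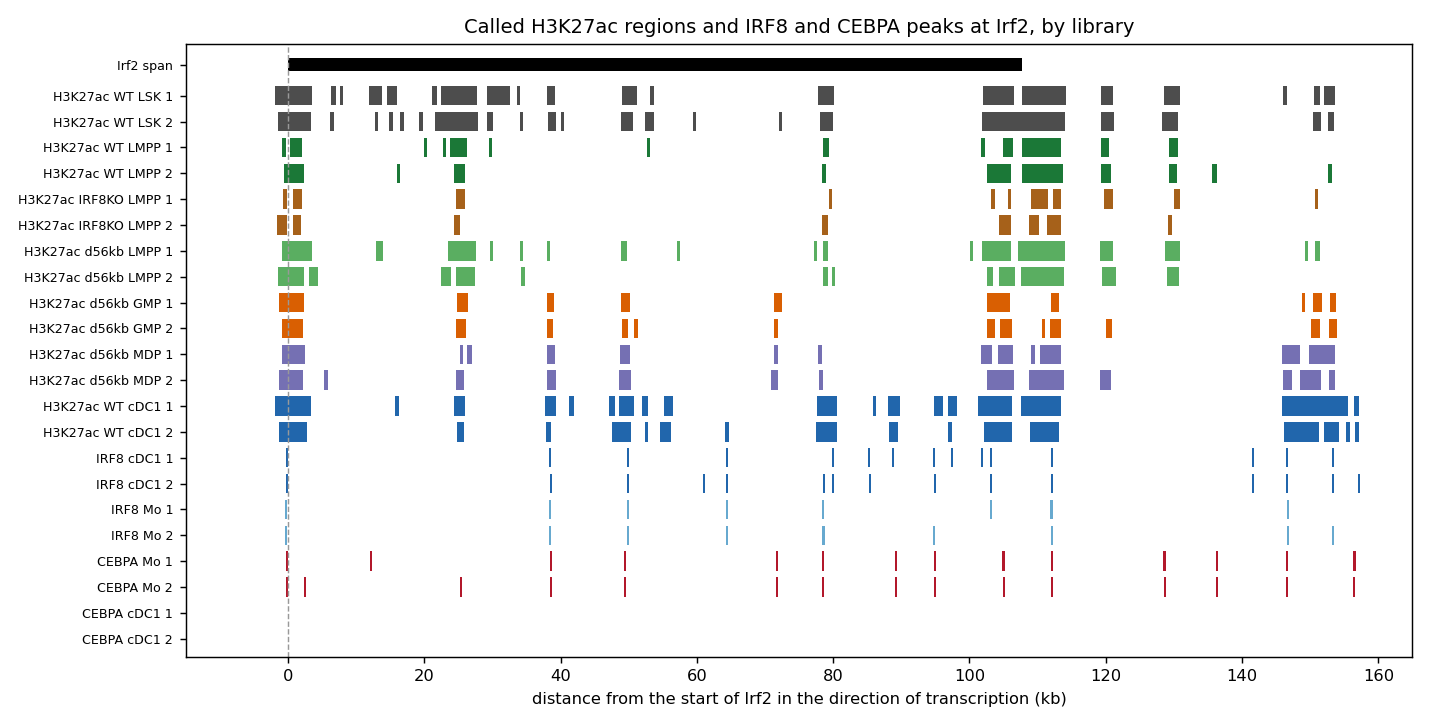
Called regions of each library at Irf2 against distance from its start in kb, 1 line per library, with the gene span in black. The element 129.6 kb past the start is called in LSK and LMPP only, the d56kb GMP libraries lack the element at 78.9 kb, and the stretch around 150.8 kb is widest in cDC1 and d56kb MDP.

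Irf4, a factor of lymphocytes and of the cDC2 branch, had little acetylation of its own. Its start had a region within 1 kb in 1 of 14 libraries, the first cDC1 library, with 769 bases lying inside the gene. Of the covered bases of its window only 8.38% lay within 5 kb of the gene, and the widest elements were nearest to Dusp22 and Exoc2. The window covered 4.98 and 4.63 scaled kb in d56kb LMPP and 0.902 and 0.440 in d56kb GMP, which did not overlap. The other groups were 3.24 and 3.16 in LSK, 2.89 and 2.33 in WT LMPP, 3.37 and 0.944 in IRF8KO LMPP, 0.567 and 3.32 in MDP, and 2.33 and 0 in cDC1.

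The fall of 1.81 in GMP against LMPP on the log2 scale (limma, standard error 0.54, adjusted p = 0.0324) was therefore one of the window. Within 5 kb of the Irf4 span the difference was -0.37 (adjusted p = 0.685), and leaving out any 1 of the 4 libraries lost the call (adjusted p 0.0956 to 0.195). IRF8 peaks of both cDC1 libraries lay at -16.4, -10.6 and -4.6 kb from the start of Irf4, and peaks of both Mo libraries at -20.8 and -10.6 kb. These 4 sites lay outside H3K27ac in all libraries but 1, the second d56kb MDP library at -10.6 kb. A CEBPA peak of both Mo libraries lay at -46.4 kb, nearest to Dusp22.

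Irf1, an activator induced by interferon gamma, had an acetylated start in 14 of 14 libraries. Its window ranged over libraries from 9.84 to 15.1 scaled kb, and group means from 11.5 in IRF8KO LMPP to 14.9 in LSK. The largest difference by size was -0.31 ± 0.15, in cDC1 against LSK (limma, adjusted p = 0.135). Without the first cDC1 library, the more enriched of the pair, it was -0.55 (adjusted p = 0.0134), and without the second it was -0.07 (adjusted p = 0.855), so its size rested on the second library.

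Although no difference of the whole Irf1 window was called, its single elements were called in different groups. The element 16.4 kb past the start was called in 11 libraries and in neither cDC1 library. The one at 34.4 kb was called in both libraries of LSK and of each d56kb group, in 1 of IRF8KO LMPP, and in none of WT LMPP or cDC1. At 13.5 kb cDC1 covered the most, a mean of 1.69 scaled kb, and LSK, WT LMPP and IRF8KO LMPP covered none. There d56kb LMPP, GMP and MDP had a call in 1 library each, with means of 0.228, 0.514 and 0.467 scaled kb. That last element held an IRF8 peak of both cDC1 libraries and a CEBPA peak of both Mo libraries. The Irf1 elements were not tested one by one. IRF8 had no peak of both Mo libraries at the locus, and neither factor had one over the STAT match in the promoter.

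Irf3, Irf7 and Irf9 lie among many genes, with 7, 8 and 11 other protein-coding genes in their windows. The shares of covered bases within 5 kb of the span were 30.0%, 46.6% and 13.8%, so much of their window values belonged to neighbours such as Prmt1 and Scaf1 at Irf3 and Psme1 and Psme2 at Irf9. Irf3, a kinase-activated factor present in most cells, ranged from 5.07 to 9.36 scaled kb over libraries. Irf7, which amplifies interferon production, ranged from 3.30 to 4.80, and Irf9, the DNA-binding subunit of the interferon complex ISGF3, from 7.90 to 15.6. Regions lay within 1 kb of the start in 14 libraries at Irf3 and Irf9 and in 13 at Irf7.

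Some of the differences came near the threshold. Irf2 differed by 0.25 ± 0.11 in cDC1 against LMPP (limma, adjusted p = 0.0853), and was called there in 3 of 16 alternatives. By limma the Irf2 difference was 0.52 with a window of 100 kb (adjusted p = 0.000420). Without the narrowest regions it was 0.02 (adjusted p = 0.945). Irf3 differed by -0.52 ± 0.20 in cDC1 against LMPP (limma, adjusted p = 0.0636), and by -0.69 within 5 kb, where the adjusted p was 0.0157, but by 0.17 without scaling (adjusted p = 0.587). Without the first cDC1 library it was -0.33 (adjusted p = 0.361). Irf9 differed by -0.47 ± 0.18 in IRF8KO against WT LMPP (limma, adjusted p = 0.118). It was -0.23 without the first IRF8KO library and -0.72 without the second (adjusted p = 0.437 and 0.0178), and -0.29 without the first WT LMPP library (adjusted p = 0.442). The Irf7 differences lay between -0.15 and 0.13 in all 8 comparisons, with standard errors of 0.19.

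At Irf3, CEBPA of both Mo libraries had a peak at -0.3 kb, nearest to Bcl2l12, that overlapped the annotated Irf3 promoter. IRF8 of both cDC1 libraries had a peak 0.7 kb inside Irf3. At Irf9, IRF8 of both cDC1 libraries had a peak 0.2 kb inside the gene. At Irf7, the CEBPA peak of both Mo libraries covered the start in the promoter shown above, and IRF8 of both cDC1 libraries had peaks 1.5 kb inside and at -2.7 kb. IRF8 in Mo had no peak of both libraries at any of the 3.

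**Figure D4:**
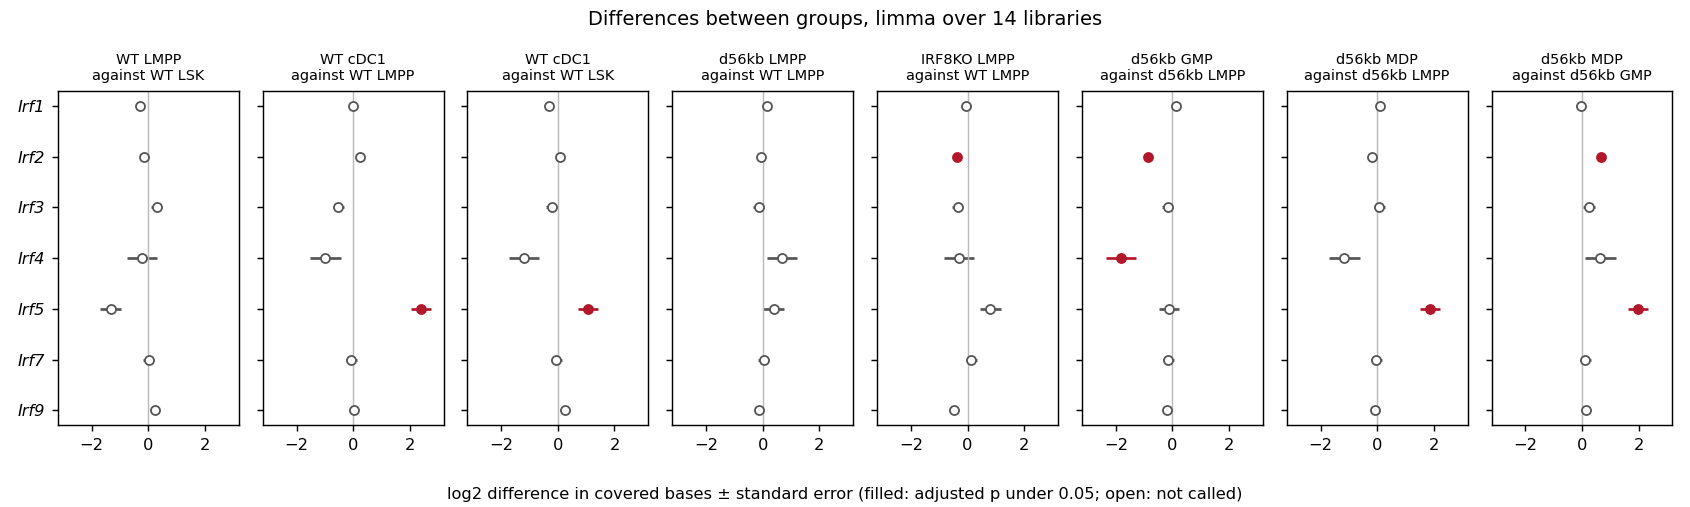
Log2 differences in covered bases with their standard errors (horizontal axes) for the 7 genes (vertical axis) in the 8 comparisons of groups, from limma over 14 libraries. Filled points passed an adjusted p of 0.05; they belong to Irf5 in 4 comparisons, Irf2 in 3 and Irf4 in 1.

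Over the 7 loci, peaks called in both libraries numbered 29 for IRF8 in cDC1, 12 for IRF8 in Mo, 24 for CEBPA in Mo and 0 for CEBPA in cDC1. All 7 members had an IRF8 peak in cDC1, beside 61.2% of all genes. The 3 members with an IRF8 peak in Mo were Irf2, Irf4 and Irf5, beside 26.7% of genes, in libraries with 5133 and 6321 peaks against 25170 and 25916 in cDC1. All 7 had a CEBPA peak in Mo within the window, beside 57.5% of genes. In the windows of Irf3, Irf4 and Irf9 all of these CEBPA peaks were nearest to other genes. The peak at -0.3 kb from Irf3 nonetheless overlapped the annotated Irf3 promoter. In the windows of Irf1, Irf2, Irf5 and Irf7 some or all were nearest to the member. CEBPA in cDC1 gave 166 and 72 peaks in the genome, of which 2 were shared and 0.0274% of genes had one nearby, so its count of 0 carries no information on these loci.

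**Figure D5:**
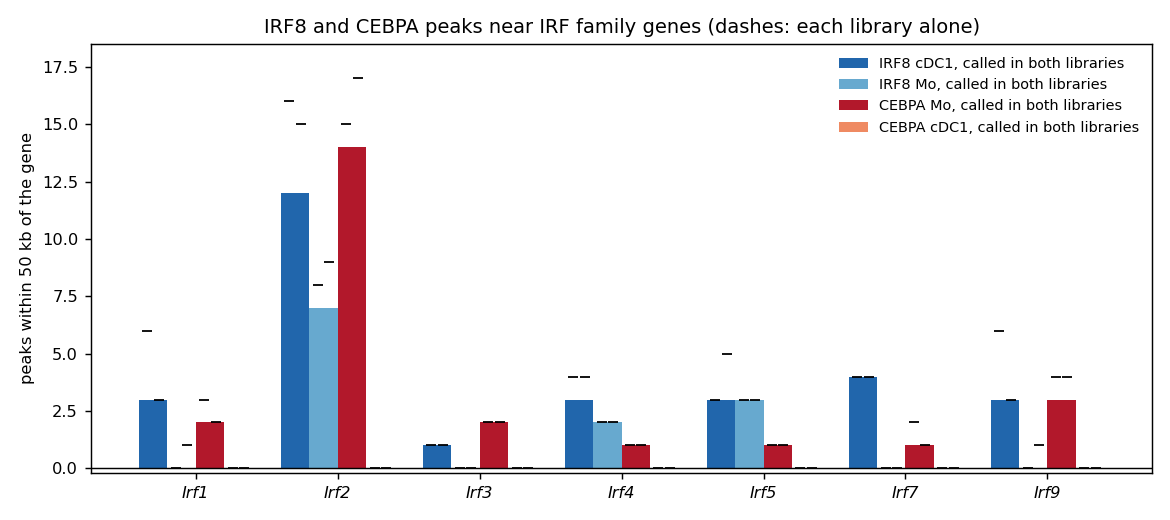
Peaks within 50 kb of each gene (vertical axis) by gene (horizontal axis) for IRF8 and CEBPA in cDC1 and Mo. Bars count peaks called in both libraries and dashes the peaks of each library; Irf2 has 12, 7 and 14, no other member has more than 4 in any set, and CEBPA in cDC1 has none.

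Of the 12 IRF8 sites in Mo, 10 (83.3%) were also IRF8 sites of both cDC1 libraries, beside 82.5% over the genome. Of the 29 IRF8 sites in cDC1, 10 (34.5%) were sites of both Mo libraries, beside 17.9%, and 16 (55.2%) lay in H3K27ac called in both cDC1 libraries, beside 37.8%. Of those 29 sites, 14 (48.3%) were acetylated in both LSK libraries, beside 22.4% over the genome, and 6 (20.7%) in both WT LMPP libraries, beside 9.59%. Of the 24 CEBPA sites in Mo, 13 (54.2%) lay in H3K27ac of both d56kb MDP libraries, beside 43.2%, and 17 (70.8%) in that of both cDC1 libraries, beside 26.2%. Sites of 1 locus are not independent, and Irf2 supplied 12 of the 29 and 14 of the 24, so the higher shares are descriptions.

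Of the merged H3K27ac elements at the 7 loci, 112 in all, 14 were called in all 14 libraries and 54 in a single library. Those called in both libraries of a group numbered 45 in LSK, 25 in WT LMPP, 17 in IRF8KO LMPP, 32 in d56kb LMPP, 29 in GMP, 28 in MDP and 31 in cDC1. The fewest were in the group with the least covered length.

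The list of interferon signalling held 40 symbols, some of them old and new names of the same gene, and 35 could be tested. It had 14 members higher and 5 lower in cDC1 against LMPP, beside 14.4% and 20.6% of all genes. The list's median log2 difference was 0.30, beside -0.15 over all genes. Higher were Jak2, a kinase of the interferon gamma receptor, from 5.29 to 26.6 scaled kb, and Ifngr1, a chain of that receptor, from 10.7 to 34.0. Tlr3, a sensor of double-stranded RNA, covered 11.6 scaled kb in cDC1, while neither WT LMPP library had a called region in its window. Lower were Socs1, an inhibitor of Janus kinases, from 4.40 to 1.86 scaled kb, and Ifnb1, the interferon beta gene, from 1.25 to 0.256. All values of this list and of the partner factors below are of windows with 50 kb on each side. They can include regions of neighbouring genes, and narrower windows were not examined for these genes.

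Against LSK, cDC1 had 9 higher and 8 lower, beside 13.1% and 19.3% of all genes, and the list's median was -0.04. In d56kb GMP and MDP against d56kb LMPP, 9 and 8 of the list were higher and 1 lower each, beside 8.99% and 8.44% of all genes higher and 8.58% and 8.22% lower. Both comparisons share the LMPP libraries. The window of Cxcl10, an interferon-induced chemokine, rose from 4.91 to 15.4 scaled kb in GMP and 13.4 in MDP. That of Ikbke, a kinase upstream of IRF3, rose from 0.228 to 6.73 and 7.27. Socs3, an inhibitor of cytokine receptors, was the lower one in both. MDP against GMP had 0 called genes of the list by limma, beside 2.42% of all genes called in either direction.

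In LMPP against LSK, Jak1 and Tlr9 were the 2 called genes of the list, both lower, beside 0.286% of genes higher and 0.941% lower. There 0 of 7 IRF members were called by limma, where 1.23% of genes were, and 1 had an unadjusted p under 0.05, Irf5, beside 3681 of 19227 genes. In IRF8KO against WT LMPP, Oas1a was higher and Cgas, Ifngr1 and Traf3 were lower, beside 2.64% and 5.17% of genes. In d56kb against WT LMPP Ifit1 was higher, beside 0.442% of genes higher and 0.0936% lower.

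Among 20 partner factors of the IRF proteins, 3 were higher and 6 lower in cDC1 against LMPP, beside 14.4% and 20.6% of all genes. Batf3, the AP-1 partner of IRF8 in cDC1, rose from 1.09 to 25.3 scaled kb, and Id2, an inhibitor of E proteins in that lineage, from 1.48 to 8.91. Irf2bpl, related to the corepressors of IRF2, fell from 17.3 to 9.29 scaled kb. In MDP against LMPP of d56kb mice Batf3, Cebpb and Ikzf1 were higher and Id2 and Ikzf3 lower, beside 8.44% and 8.22% of all genes. In GMP against LMPP Cebpb was higher and Ikzf3 lower, beside 8.99% and 8.58%.

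For each member, the genes with the most similar pattern were those with the highest Pearson correlation over the 14 H3K27ac libraries, outside the member's own window. For Irf5 they were Arnt (r = 0.95), Ctsk (0.94) and Frmd4b (0.91), and for Irf2 Tnnt3 (0.94), Lsp1 (0.94) and Nudt14 (0.93). Tnnt3 and Lsp1 are both on chromosome 7, and Arnt and Ctsk both on chromosome 3. Overlap of the matches' windows with one another was not excluded, so such pairs may count the same regions. The highest r was 0.88 for Irf1 (Yipf1, then Mcam and Fhod1), 0.90 for Irf3 (Pigg, then Tspo and Ttll12), 0.89 for Irf4 (Hebp1, then Bdh1 and Gbgt1), 0.80 for Irf7 (Cyb5rl, then Myom3 and Kcnip2) and 0.88 for Irf9 (Bag6, then Prrc2a and Ubap2l). The 14 points share libraries and depth, and each gene was picked as the best match, so these values are descriptions.

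Irf8 itself covered a mean of 35.4 scaled kb in cDC1, 13.7 in d56kb MDP, 8.61 in LSK, 8.10 in d56kb LMPP, 4.93 in WT LMPP, 2.46 in IRF8KO LMPP and 2.03 in d56kb GMP, in a window that takes in the deleted enhancer.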

How the data were processed

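Of 29 samples, 22 libraries had lists of called regions, and the 7 input samples were not analysed here. Per the submitters' processing notes, reads were aligned to mm10 with Bowtie 1.1.2 and regions called with HOMER 4.9. Per the file headers, H3K27ac regions were called with a peak size of 500 and at least 4-fold over input. Positions are of the unit other, in bases, as deposited; the deposited score column holds 1 value for all regions and was not used.

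Covered bases were computed per gene window and library (Python 3.11.15, numpy 2.4.6, pandas 2.3.3), scaled by total covered length, and compared in R 4.3.3 by limma 3.58.1 (linear fits moderated by eBayes, its trend and robust options on) across the 14 libraries with 7 residual degrees of freedom. Gene spans were those of RefSeq (GRCm38.p6). Peaks of both libraries overlapped by at least 1 base. The range of depth is in the report; its part in missing calls was not tested. Of the 40 interferon symbols, some of them old and new names of the same gene, 35 were tested. Both steps were tested on simulated data.

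Members, lists and markers were chosen with earlier results of these data known. All 7 members were named; list genes only where called. Alternatives were other windows, scalings, pseudocounts, filters, fits and left-out libraries. Replicate numbers did not pair libraries: in 21 pairs of groups the correlation of deviations ran from -0.07 to 0.08.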

Additional observations from a re-analysis of the deposited data

How the results depend on the processing

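Of 952 differences of single members recomputed under alternatives, 40 lost a call, 27 gained one, 5 turned direction with a call and 91 changed sign with no call on either side. Irf5 in cDC1 against LMPP and Irf2 in d56kb GMP against d56kb LMPP stayed past the threshold in all 16 alternatives with a test; Irf5 in d56kb MDP against LMPP missed it only with a pseudocount of 100 (adjusted p = 0.112).

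Counts of called members (of 7) moved as follows. In cDC1 against LMPP, 1 became 2 with 5 kb, 5 with 100 kb, 4 without scaling, and 2 with scaling to the median gene, without the narrowest regions, or with tags in regions as a covariate. In cDC1 against LSK, 1 became 4 with 100 kb and 0 with 5 kb, the nearest gene, a pseudocount of 100, no filter, or without the narrowest regions. In IRF8KO against WT LMPP, 1 became 2 without scaling and 0 with 5 kb, the nearest gene, median scaling, the fit of 4 libraries, or the replicate block (Irf2 adjusted p = 0.0508); the block changed no other count. In d56kb GMP against LMPP, 2 became 1 with 5 kb, the nearest gene, a pseudocount of 100 or no filter. In MDP against GMP, 2 became 0 with 5 kb and 1 with the nearest gene, no scaling, a pseudocount of 100 or no filter. In MDP against LMPP, 1 became 2 with 100 kb or the covariate and 0 with a pseudocount of 100. Without scaling, LMPP against LSK had 6 in place of 0 and d56kb against WT LMPP 1 in place of 0. Leaving out 1 library gave 0 to 1 in LMPP against LSK, 1 to 2 in cDC1 against LMPP, 0 to 2 in cDC1 against LSK and in IRF8KO against WT, 0 to 0 in d56kb against WT LMPP, 1 to 1 in GMP and in MDP against LMPP, and 0 to 1 in MDP against GMP.

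Without scaling, the median over all genes ran from -0.71 (LMPP against LSK) to 0.41 (d56kb against WT LMPP), and these turned: in LMPP against LSK, Irf3 -0.62, Irf7 -0.80 and Irf9 -0.71; in cDC1 against LMPP, Irf1 0.71; in d56kb against WT LMPP, Irf2 0.56. The cause was not tested. Calls over all genes ranged widely: 236 in LMPP against LSK became 0 with 4 libraries and 10739 without scaling, 103 in d56kb against WT LMPP became 0 and 3252 in the same 2 settings, 1502 in IRF8KO against WT ran from 0 to 2826, 6735 and 6229 in cDC1 against LMPP and LSK from 3998 to 8314 and 3609 to 7965, and 3378, 3204 and 465 in the d56kb comparisons from 1618 to 5230, 1550 to 4391 and 33 to 1186. IRF8 peaks of cDC1 at the 7 loci were 18 with 5 kb and 46 with peaks of either library (35 to 40 in 1 library alone, 13 to 16 for IRF8 in Mo, 28 for CEBPA in Mo), CEBPA peaks of Mo 13 with 5 kb, and elements 71 without the narrowest regions. The part of depth in missing calls was not tested: the second WT LMPP library had 3.65 M tags and 25.0 Mb covered, and the second d56kb GMP library 2.61 M tags and 39.5 Mb.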
